A study of Mus musculus with 6 samples.

Results

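The neurotrophins are secreted growth factors of neurons, and 6 genes of this system were followed here in mouse prefrontal cortex: the ligands *Bdnf* (brain-derived neurotrophic factor) and *Ntf3* (neurotrophin-3), the receptor tyrosine kinases *Ntrk2* (TrkB) and *Ntrk3* (TrkC), the low-affinity receptor *Ngfr* (p75) and the sorting receptor *Sort1* (sortilin). The genes were taken by name, and all 6 were found among the 56923 genes of the count tables. Polyadenylated RNA was sequenced from prefrontal cortex in 3 knockout (KO) and 3 wild-type (WT) samples. KO samples carry the genotype Pla2g4e KO. The study obtained the constitutive knockout, with the tm2a allele on a C57BL/6N background with the *A* tm1Brd allele, from a mouse repository. In the tm2a allele a LacZ trapping element is spliced into *Pla2g4e*, a phospholipase gene that makes N-acylphosphatidylethanolamines. The allele is constitutive, so every cell carries it from conception. The paper describes it as a predicted null allele whose insertion is meant to cause decay of the transcript. No Pla2g4e protein was seen in the study's hippocampal extracts of KO mice. The other samples are labelled wild type. Mice of both sexes were used in the study, but neither the labels nor the methods give the age, sex or litter of the sequenced animals, or say that each sample is 1 animal. The p-values therefore measure the spread between these samples. By quantitative PCR the study found significantly less *Bdnf* mRNA in neuronal cultures after *Pla2g4e* knockdown, and it relates the gene to dendritic arborization. Knockdown in culture is a different system from the cortex of constitutive KO mice. The comparison asked here is whether the ligand and receptor transcripts differed in the cortex of KO mice.

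Libraries held 11792463 to 14594230 fragments (read pairs assigned to genes). *Pla2g4e* averaged 7.35 ± 1.21 CPM over the KO libraries and 10.8 ± 2.71 CPM over the WT libraries (SD, n = 3 each), where CPM is a gene's share of the fragments of a library, per 1e6, on library sizes scaled with TMM (trimmed mean of M-values). The library labelled WT replicate 1 was at 7.84 CPM and lay within the KO range, so the transcript did not set every library apart by its label. The log2 fold change (KO/WT) of *Pla2g4e* was -0.55 (SE 0.21, limma-voom adjusted p = 0.635, unadjusted p = 0.0205), and the counts do not separate trapped from intact transcript. Over the 17 alternative settings it lay between -0.76 and -0.39, with adjusted p-values from 0.243 to 0.999. The unadjusted p-value was under 0.05 in 14 of them. The summed level of 4 Y-linked genes was at most 0.155 CPM in replicate 1 of each group and 179 to 193 CPM in the other 4 libraries. *Xist* ran the other way, with 1410 CPM for KO replicate 1, 960 CPM for WT replicate 1 and 0.241 CPM or less elsewhere. By these transcripts replicate 1 of each group was female and the other libraries were male. Within each sex *Pla2g4e* was lower in KO. Replicate 1 gave 5.95 CPM against 7.84 CPM, and the others 8.12 and 7.97 CPM against 11.3 and 13.2 CPM. A fit of only the male libraries gave -0.60 on the log2 scale (limma-voom adjusted p = 0.999, unadjusted p = 0.00299). Markers of cortical excitatory neurons were present in all libraries. Markers of regions that border the prefrontal cortex varied between libraries of the same label, with the summed level of 6 olfactory bulb markers between 31 and 206 CPM in KO and between 13.7 and 56.4 CPM in WT. Over the whole table, limma-voom called 0 of 19084 genes (0%) at the adjusted threshold of 0.05, edgeR's quasi-likelihood test 0 and DESeq2 1. Without adjustment, limma-voom gave 1492 genes (7.82%) a p-value under 0.05, of which 657 (3.44%) were lower and 835 (4.38%) higher in KO.

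A neurotrophin is made as a precursor that binds p75 together with sortilin, and the mature form, released by proteases such as furin and plasmin, binds a Trk receptor. BDNF binds TrkB and neurotrophin-3 binds mainly TrkC, and the kinases then signal through the Ras-MAP kinase, PI3 kinase-Akt and phospholipase C gamma routes. In cortex, BDNF is made mostly by excitatory neurons in step with their activity and is known for its effects on dendrites, spines and synaptic strength. TrkB is also made in a truncated form without the kinase, which astrocytes express. The counts are sums over all exons of a gene, so full-length and truncated receptors were not told apart.

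*Bdnf* (ENSMUSG00000048482.15) lies on the plus strand of chromosome 2, from 109505045 to 109557352 in GRCm39, 10.4 Mb from *Pla2g4e*. Its transcripts start at several alternative promoters that share the coding exon, and the count of the gene is the sum over all of them. RefSeq promoter windows, in the GRCm38.p6 build and so not on the coordinates of the count tables, were found for 4 of the 6 genes, with 7 starts for *Bdnf*, 2 for *Ntf3* and 1 each for *Ntrk2* and *Ngfr*. Shown are the 250 bases before *Bdnf* starts 1 and 3, numbered in genome order, and before the *Ntrk2* start, 5′ to 3′ on the strand of the gene, because the ligand and its receptor are the pair that the ratios given further on compare. Capitals mark the core of the cAMP response element, the site bound by CREB, searched as TGACG and, on the other strand, CGTCA.
Bdnf start 1, chr2:109674450-109674699, plus strand: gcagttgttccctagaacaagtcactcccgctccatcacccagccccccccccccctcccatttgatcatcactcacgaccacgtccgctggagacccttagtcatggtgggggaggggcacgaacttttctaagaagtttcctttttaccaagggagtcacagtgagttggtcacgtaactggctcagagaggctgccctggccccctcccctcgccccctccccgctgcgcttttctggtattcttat
Bdnf start 3, chr2:109692186-109692435, plus strand: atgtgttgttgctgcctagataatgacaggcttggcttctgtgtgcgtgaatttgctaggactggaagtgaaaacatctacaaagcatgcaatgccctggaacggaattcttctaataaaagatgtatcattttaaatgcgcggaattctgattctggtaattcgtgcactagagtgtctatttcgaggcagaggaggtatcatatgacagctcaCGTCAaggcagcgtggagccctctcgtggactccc
Ntrk2 start, chr13:58806319-58806568, plus strand: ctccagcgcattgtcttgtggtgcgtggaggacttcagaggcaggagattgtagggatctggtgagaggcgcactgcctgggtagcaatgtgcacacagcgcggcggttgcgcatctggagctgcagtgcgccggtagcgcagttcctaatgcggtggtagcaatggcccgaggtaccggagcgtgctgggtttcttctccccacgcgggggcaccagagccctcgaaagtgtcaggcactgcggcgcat
The window of *Bdnf* start 3 held the core once, beginning 35 bases before the start. The core was found in 1 of the 7 *Bdnf* windows and in none of the windows of *Ntf3*, *Ntrk2* and *Ngfr*, and 17.9% of the 32536 promoter windows of the same length held it. The full element TGACGTCA was in none of the windows of these 4 genes and in 1.56% of all windows.

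Levels were compared between genes only per exon length, as TPM (fragments per exon length, scaled to 1e6 per library). *Sort1* was the most abundant, at 285 ± 11 TPM (SD over all 6 libraries), above 98% of the genes tested. *Ntrk2* followed at 137 ± 4.22 TPM and *Ntrk3* at 38.7 ± 1.44 TPM. The ligands were lower, with *Bdnf* at 17.2 ± 3.39 TPM and *Ntf3* at 1.83 ± 0.882 TPM, and *Ngfr* was the lowest at 0.89 ± 0.449 TPM, with 10.6% of the genes tested below it. The ranges over libraries were separate between *Sort1* (269 to 298 TPM), *Ntrk2* (131 to 144 TPM), *Ntrk3* (37 to 41.2 TPM), *Bdnf* (14.6 to 23.2 TPM) and *Ntf3* (0.761 to 3.09 TPM). The ranges of *Ntf3* and *Ngfr* (0.185 to 1.59 TPM) overlapped, so the order of these 2 genes was not separated by the spread. *Bdnf* varied among libraries with a coefficient of variation of 20.4%, where counting alone gives 5.31%, and *Ntrk2*, *Ntrk3* and *Sort1* varied by 3.79%, 3.93% and 3.08%. The long annotated exons of *Ntrk3* (30.17 kb) and *Ntrk2* (19.29 kb), which hold sequence of several isoforms, lower the TPM of these receptors.

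**Figure D1:**
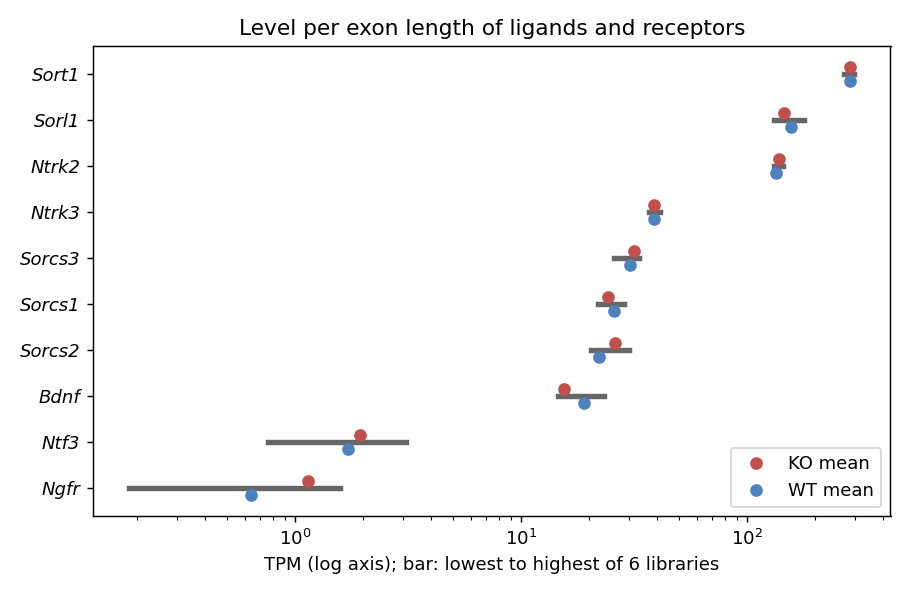
Level per exon length of the 10 ligands and receptors with fragments in every library, in TPM on a log axis; grey bars run from the lowest to the highest of the 6 libraries and dots give the KO mean (red) and the WT mean (blue). *Sort1* and *Ntrk2* lie above the ligands in every library, and the bars of *Ntf3* and *Ngfr* overlap.

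*Bdnf* was lower on average in KO, but the groups overlapped. In KO, 349, 286 and 338 fragments gave levels of 23.6, 24 and 26.4 CPM. In WT, 485, 374 and 307 fragments gave levels of 38, 30.6 and 24.1 CPM. The libraries labelled WT replicates 1 and 2 lay above all 3 KO libraries, and WT replicate 3 lay within the KO range. The KO mean was 24.6 ± 1.53 CPM and the WT mean 30.9 ± 6.97 CPM (SD, n = 3 each), so the spread was mainly among the WT libraries. The log2 fold change (KO/WT) was -0.30 (SE 0.14, 95% interval -0.61 to 0.0036, limma-voom adjusted p = 0.636). *Bdnf* had the lowest p-value of the 6 genes. Before adjustment it was not under 0.05 in this fit and was under 0.05 in 7 of the 17 alternatives, the replicate block and the Y-linked covariate among them. The value rested on the library labelled WT replicate 1, without which the log2 fold change was -0.14 (limma-voom adjusted p = 0.85), and on WT replicate 3, without which it was -0.48 (adjusted p = 0.255, and under 0.05 only unadjusted). Within the 4 libraries with Y-linked expression it was -0.11 (limma-voom adjusted p = 0.999), and the other 2 libraries, 1 of each group, allow no test. Over all 17 alternatives the log2 fold change lay between -0.48 and -0.11 and the adjusted p-value between 0.255 and 0.999. In bulk tissue, fewer cells that express a gene and less RNA per cell cannot be told apart. The summed level of 6 pan-neuronal markers was 5208 to 5790 CPM in KO and 5809 to 6804 CPM in WT. The fitted fold change was below 0 for all 6 (median log2 fold change -0.15). Of the 6, 2 were lower at an unadjusted p-value under 0.05 (3.44% of all genes were), and none was at 0. The sum was highest in WT replicate 2, and WT replicate 1, highest in *Bdnf*, was at 6117 CPM. Sums of 10 excitatory neuron markers overlapped, at 5428 to 6463 CPM in KO and 5875 to 6389 CPM in WT. The fitted fold change was below 0 for all 10 (median log2 fold change -0.13). The part of neuron content in the *Bdnf* values was not tested. An antisense gene that shares 14.4% of the exon bases of *Bdnf*, *Gm45346*, had 1 to 4 fragments in a library, counted apart by strand.

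**Figure D2:**
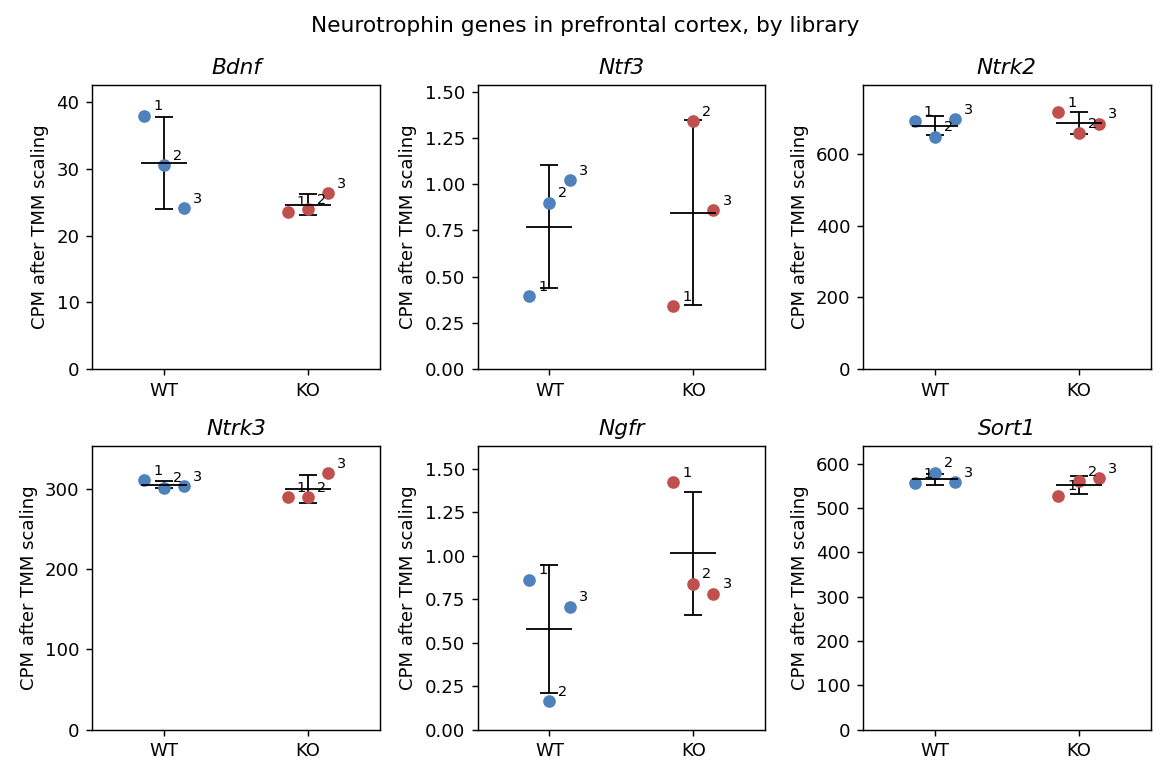
Level of the 6 neurotrophin genes in each library, in CPM after TMM scaling on axes that start at 0; blue dots are WT and red dots KO libraries, labelled by replicate number, with the mean and SD of each group in black. WT and KO values overlap for each of the 6 genes, and *Bdnf* is highest in the libraries labelled WT replicates 1 and 2.

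**Figure D3:**
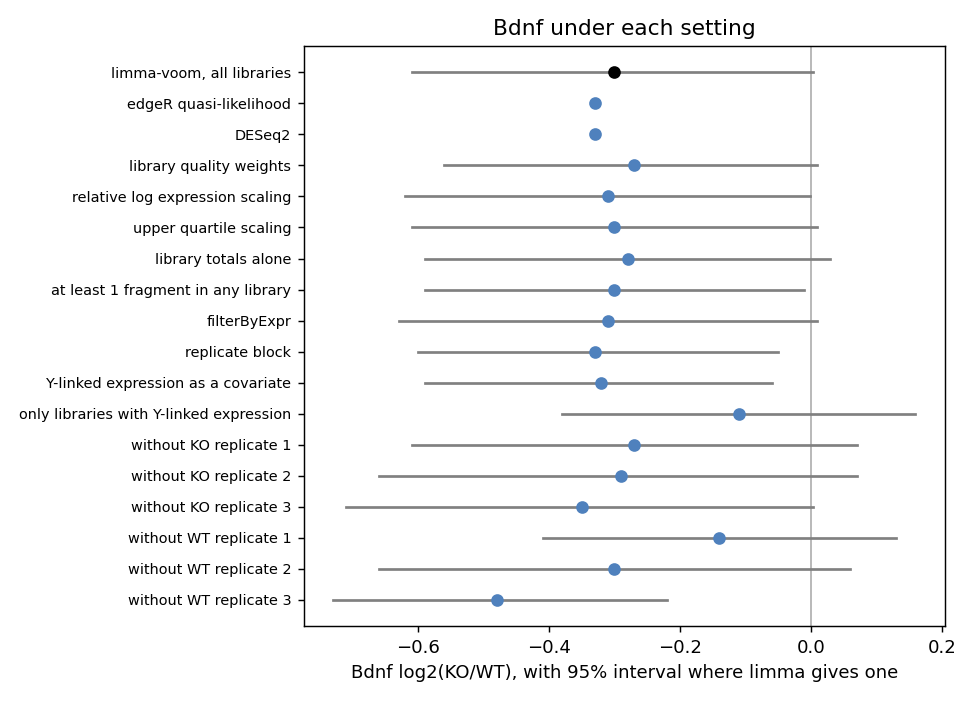
Log2 fold change of *Bdnf* (KO/WT) under limma-voom with all libraries (black) and under each of the 17 alternatives (blue), with the 95% interval where limma gives one. All values lie below 0, from -0.48 without WT replicate 3 to -0.11 in the libraries with Y-linked expression only.

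*Ntf3* (ENSMUSG00000049107.14, chromosome 6, 126078375 to 126143873, minus strand) was near the limit of detection. Only 5, 16 and 11 fragments were counted in KO, and 5, 11 and 13 in WT. The KO mean was 0.846 ± 0.501 CPM and the WT mean 0.771 ± 0.334 CPM (SD, n = 3 each). The lowest library of each group was replicate 1, the one without Y-linked expression. The remaining libraries of both groups lay between 0.859 and 1.34 CPM. A count of 5 has an exact Poisson 95% interval of 1.62 to 11.7 fragments and a count of 16 one of 9.15 to 26, which covers counting error only. The log2 fold change was -0.03 (SE 0.56, limma-voom adjusted p = 0.993), and its sign differed between settings. The 95% interval of the ratio ran from 0.42-fold to 2.29-fold, so a difference within it was not detectable with these libraries.

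The Trk receptors were measured with far more fragments, and their KO and WT levels differed by less than the spread between replicates. *Ntrk2* (ENSMUSG00000055254.16, chromosome 13, 58954383 to 59281784, plus strand) gave 718, 658 and 685 CPM in the KO libraries and 693, 649 and 698 CPM in the WT libraries. KO replicate 1 was the highest and WT replicate 2 the lowest library. Its log2 fold change was 0.02 (SE 0.06, limma-voom adjusted p = 0.954), and the 95% interval of the ratio ran from 0.922-fold to 1.11-fold. *Ntrk3* (ENSMUSG00000059146.13, chromosome 7, 77825707 to 78387760, minus strand) gave 289.6, 289.9 and 320.1 CPM in the KO libraries and 311, 302 and 304 CPM in the WT libraries. All 3 WT libraries lay between the lower pair of KO libraries and KO replicate 3. The ratio was 0.98-fold with a 95% interval of 0.891-fold to 1.08-fold (limma-voom adjusted p = 0.912).

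*Sort1* (ENSMUSG00000068747.15, chromosome 3, 108191398 to 108268827, plus strand), which binds the precursor forms and sorts BDNF into the secretory route, was the steadiest of the 6 genes. The KO libraries gave 528, 561 and 567 CPM and the WT libraries 556, 579.7 and 558 CPM, so the ranges overlapped. The highest library was 1.1 times the lowest. The ratio was 0.977-fold with a 95% interval of 0.895-fold to 1.07-fold (limma-voom adjusted p = 0.889).

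*Ngfr* (ENSMUSG00000000120.7, chromosome 11, 95459644 to 95478561, minus strand), the p75 receptor of the tumour necrosis factor receptor family, had few fragments. The KO libraries held 21, 10 and 10 fragments, or 1.42, 0.838 and 0.781 CPM. The WT libraries held 11, 2 and 9 fragments, or 0.862, 0.164 and 0.706 CPM. KO replicate 1 was the highest and WT replicate 2 the lowest, and the other 4 libraries lay close together and overlapped. The log2 fold change was 0.99 (SE 0.56, 95% interval -0.23 to 2.21, limma-voom adjusted p = 0.654). Without WT replicate 2 it was 0.34 (limma-voom adjusted p = 0.929). Without KO replicate 1 it was 0.70 (limma-voom adjusted p = 0.925). The same libraries were the extremes of the olfactory bulb markers, whose sum was 206 CPM in KO replicate 1 and 13.7 CPM in WT replicate 2, with a fitted fold change above 0 for all 6 (median log2 fold change 1.35), 1 of 6 higher in KO at an unadjusted p-value under 0.05 (4.38% of all genes were) and none at 0. WT replicate 2 was also lowest in the summed level of 8 leptomeningeal fibroblast markers, at 386 CPM. KO libraries were between 694 and 748 CPM and the other WT libraries at 652 and 716 CPM. The fitted fold change was above 0 for 7 of 8 (median log2 fold change 0.25). Of the 8, 1 was higher in KO at an unadjusted p-value under 0.05 (4.38% of all genes were), and none was at 0. With each gene weighted equally, as the mean deviation of log2 CPM from the gene's own mean, WT replicate 1 was highest at 0.39. KO libraries were then at 0.08 to 0.17 and WT replicate 2 at -0.65. The part of this tissue in the *Ngfr* values was not tested.

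None of the 6 genes had an unadjusted p-value under 0.05 in limma-voom, where 7.82% of all genes tested did, and 0 passed the adjusted threshold. Before adjustment *Bdnf* was below 0.05 in edgeR's quasi-likelihood test (adjusted p = 0.631) and in DESeq2 (adjusted p = 0.999). KO and WT values overlapped for all 6, whereas they did not overlap for 13% of all genes tested (6.29% lower and 6.72% higher in KO). The fitted fold change was below 0 for 4 of the 6 genes, against 48.1% of all genes, and their median log2 fold change was -0.03, against 0.01 over all genes.

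The other ligands and receptors of the family were read in the same fit. *Ntf5* (neurotrophin-4, a further TrkB ligand) had 0, 1 and 2 fragments in the KO libraries and 7, 2 and 2 in the WT libraries, and 7 of its 14 fragments came from the library labelled WT replicate 1. The lowest WT libraries and the highest KO library both held 2 fragments, and they were set apart in CPM only by their scaled totals. The fitted log2 fold change was -1.67 (limma-voom adjusted p = 0.653) and ran from -2.19 to -0.87 when single libraries were left out, except that without the library labelled WT replicate 1 the gene did not pass the count filter.

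The sortilin relatives were better measured. *Sorl1*, which sorts the amyloid precursor protein, gave 433, 410.3 and 424 CPM in the KO libraries and 531, 472 and 397 CPM in the WT libraries. As for *Bdnf*, the libraries labelled WT replicates 1 and 2 lay above all KO libraries and WT replicate 3 did not. Its log2 fold change was -0.13 (SE 0.09, limma-voom adjusted p = 0.695), and it was -0.04 without the library labelled WT replicate 1 and -0.25 without WT replicate 3. *Sorcs2*, a co-receptor of p75 for the BDNF precursor, gave 68.3, 56.8 and 50.9 CPM in the KO libraries and 59.3, 46 and 47.5 CPM in the WT libraries. The log2 fold change of *Sorcs2* was 0.21 (SE 0.12, limma-voom adjusted p = 0.66), and it was 0.09 without KO replicate 1 and 0.32 without the library labelled WT replicate 1. *Sorcs1* and *Sorcs3* had log2 fold changes of -0.11 (SE 0.09) and 0.04 (SE 0.09), and that of *Sorcs1* was -0.05 without KO replicate 1 and -0.05 without WT replicate 2. Before adjustment, 0 of these 5 genes were under 0.05 in limma-voom, in edgeR's quasi-likelihood test or in DESeq2. Over all genes, 1492 (7.82%), 1507 and 902 were under 0.05 in these tests. Over the 17 alternatives *Sorcs2* was under 0.05 before adjustment in 5, among them the fits with the replicate block and with the Y-linked covariate, and *Sorl1* in 1, without WT replicate 3. *Ntf5* was under 0.05 before adjustment in 1 of the 14 alternatives that could be computed for it, the one with all genes of at least 1 fragment.

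**Figure D4:**
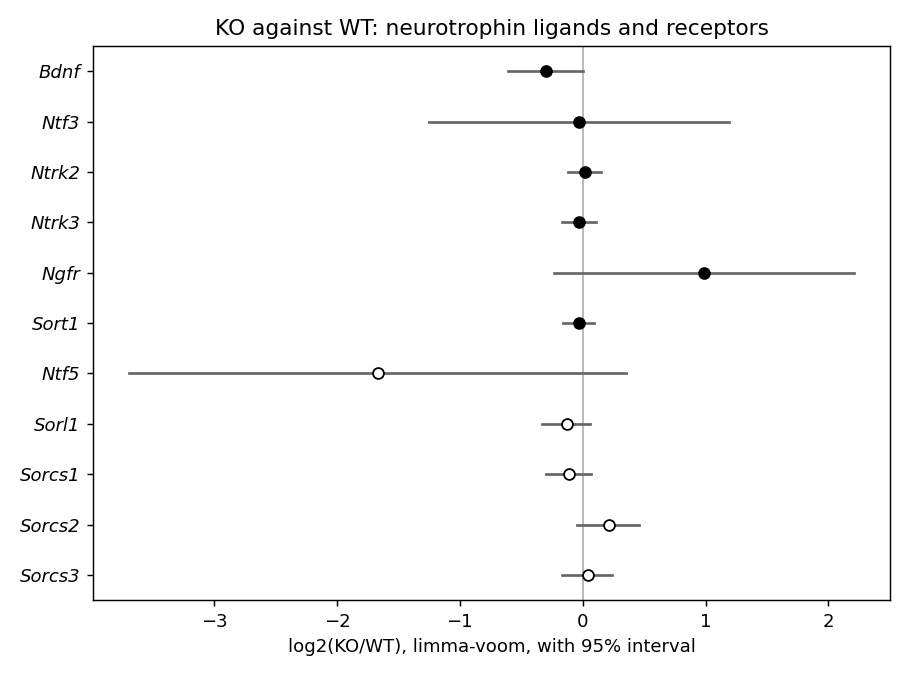
Log2 fold change (KO/WT) from limma-voom with its 95% interval for the 6 genes followed here (filled) and the 5 other ligands and receptors (open). Every interval includes 0. The intervals of *Ntf3*, *Ngfr* and *Ntf5* are wide, and those of *Ntrk2*, *Ntrk3* and *Sort1* are narrow.

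Because a ratio within a library does not depend on scaling, 3 ratios of fragments per exon length were compared. The log2 ratio of *Bdnf* to *Ntrk2* was -3.29, -3.15 and -3.06 in the KO libraries and -2.55, -2.77 and -3.22 in the WT libraries. The difference (KO minus WT) was -0.32, with a two-sided exact permutation p-value of 0.3 and 0.45 after adjustment over the 3 ratios. It was -0.17 without the library labelled WT replicate 1, -0.51 without WT replicate 3 and -0.11 in the libraries with Y-linked expression. The log2 ratio of *Ngfr* to *Ntrk2* was -6.97 ± 0.42 in KO and -8.03 ± 1.25 in WT (exact permutation p = 0.2, adjusted 0.45), and the difference of 1.06 was 0.34 without WT replicate 2. That of *Ntf3* to *Ntrk3* was -4.54 ± 1.0 in KO and -4.61 ± 0.77 in WT (exact permutation p = 1). With 3 libraries against 3 the exact test cannot give a p-value under 0.10.

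Genes that process, transmit or control neurotrophin signals were read from 6 further lists, and 109 genes were tested in all, the 11 ligands and receptors included. Of these, 5 were lower and 1 higher in KO at an unadjusted p-value under 0.05 (5.5%, against 7.82% of all genes), and 0 passed the adjusted threshold in limma-voom. The median log2 fold change was -0.03. Without the library labelled WT replicate 1 the number at an unadjusted p-value under 0.05 was 4, without KO replicate 1 it was 3, without KO replicate 3 it was 10 and without WT replicate 3 it was 13. Over all genes that passed the count filter in each of these fits, the number was 1019, 830, 1527 and 2239, against 1492 with all libraries. It was thus nearly unchanged without KO replicate 3.

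Among 12 transcriptional regulators of *Bdnf*, only *Mef2c*, an activity-dependent transcription factor of excitatory neurons, had an unadjusted p-value under 0.05 (8.33% of the list, against 7.82% of all genes). The KO libraries gave 578, 593 and 589 CPM, and the WT libraries 694, 696 and 646 CPM. All KO libraries were thus below all WT libraries, as for 6.29% of genes tested. The log2 fold change was -0.21 (SE 0.06, limma-voom adjusted p = 0.635). Over the 17 alternatives it lay between -0.25 and -0.18, under 0.05 before adjustment in all 17, with adjusted p-values from 0.255 to 0.999. Excitatory neuron markers summed to 5428 to 6463 CPM in KO and 5875 to 6389 CPM in WT, and the fitted fold change was below 0 for all 10 (median log2 fold change -0.13), with 2 of 10 lower at an unadjusted p-value under 0.05 (3.44% of all genes were) and none at 0. Their part in the *Mef2c* values was not tested.

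Of 12 partners of p75, 2 were lower in KO at an unadjusted p-value under 0.05 in limma-voom, where 3.44% of all genes tested were. These were *Arhgdia*, an inhibitor of GDP dissociation from small GTPases that p75 binds (247 ± 6.15 CPM in KO and 278 ± 18 CPM in WT), and *Lingo1*, a co-receptor of p75 (335 ± 33.2 and 402 ± 70.7 CPM). Their log2 fold changes were -0.17 and -0.25, each with an adjusted p-value of 0.635. That of *Lingo1* was -0.13 without the library labelled WT replicate 1, -0.39 without WT replicate 3 and -0.06 in the libraries with Y-linked expression. Only *Arhgdia* of these had groups that did not overlap, as 6.29% of all genes did in this direction, and *Lingo1* was higher in the libraries labelled WT replicates 1 and 2 (472 and 403 CPM) than in WT replicate 3 (331 CPM). Of 10 tested genes of precursor processing, 1 (10%, where 4.38% of all genes were), *Pcsk5*, a proprotein convertase, was higher in KO before adjustment, at 22.3 ± 1.41 CPM against 17.7 ± 2.82 CPM (log2 fold change 0.34, SE 0.12, limma-voom adjusted p = 0.635), with no overlap between groups, as for 6.72% of all genes tested in this direction. In the libraries with Y-linked expression its log2 fold change was 0.19.

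Among 23 Trk adaptors, *Shc3*, the neuronal Shc adaptor, was lower in KO before adjustment, at 54 ± 2.17 CPM against 61.8 ± 3.35 CPM (log2 fold change -0.20, limma-voom adjusted p = 0.635). It was the only one of the 23 under 0.05 (4.35%, against 7.82% of all genes). Of 25 genes of the intracellular cascade, *Hras*, a small GTPase downstream of the Trk receptors, was lower in KO before adjustment, at 80.3 ± 4.92 CPM against 92.5 ± 10.2 CPM (log2 fold change -0.20, limma-voom adjusted p = 0.635). This was 1 of 25 genes (4%, against 7.82% of all genes), and the value was -0.11 without the library labelled WT replicate 1 and -0.10 in the libraries with Y-linked expression. Of 16 genes that BDNF is known to induce, none had an unadjusted p-value under 0.05 in limma-voom, where 7.82% of all genes did. The lowest belonged to *Homer1*, a postsynaptic scaffold gene, with 261, 268 and 274 CPM in the KO libraries and 379, 322 and 248 CPM in the WT libraries (log2 fold change -0.22, SE 0.12, limma-voom adjusted p = 0.648). Its fold change was -0.08 without the library labelled WT replicate 1, -0.39 without WT replicate 3 and -0.06 in the libraries with Y-linked expression, on the log2 scale. *Homer1* was under 0.05 before adjustment in 5 of the 17 alternatives. DESeq2, the replicate block and the Y-linked covariate were among them, and edgeR's quasi-likelihood test was not. Before adjustment, *Pcsk5* was under 0.05 in 14 of the 17 alternatives, *Arhgdia* and *Shc3* in 13 each, *Hras* in 12 and *Lingo1* in 9. None of the genes named in these lists passed the adjusted threshold in any of the 17 alternatives.

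The genes whose levels were most like *Bdnf* and *Ntf3* were found among 10254 genes with a mean of at least 10 CPM over the 6 libraries. The measure was the root mean square difference of log2 CPM after centring each gene on its own mean. A small prior count was added before the log, which shrinks the spread of genes with few fragments, such as *Ntf3* and *Ngfr*. Nearest to *Bdnf* were *Homer1*, with a difference of 0.0578 on the log2 scale, and *Clybl*, an enzyme of mitochondrial citramalyl-CoA breakdown, with 0.0592, where *Bdnf* itself varied by 0.247. Nearest to *Ntf3* were the immediate early genes *Junb* (0.217) and *Arc* (0.237), where *Ntf3* varied by 0.582. *Arc* gave 134, 254 and 185 CPM in the KO libraries and 118, 184 and 211 CPM in the WT libraries, lowest in replicate 1 of both groups as *Ntf3* was. *Junb* gave 37.7, 71 and 54.8 CPM in the KO libraries and 35, 59.3 and 64.8 CPM in the WT libraries. The nearest genes were picked from many over only 6 libraries, and the likeness is a description.

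**Figure D5:**
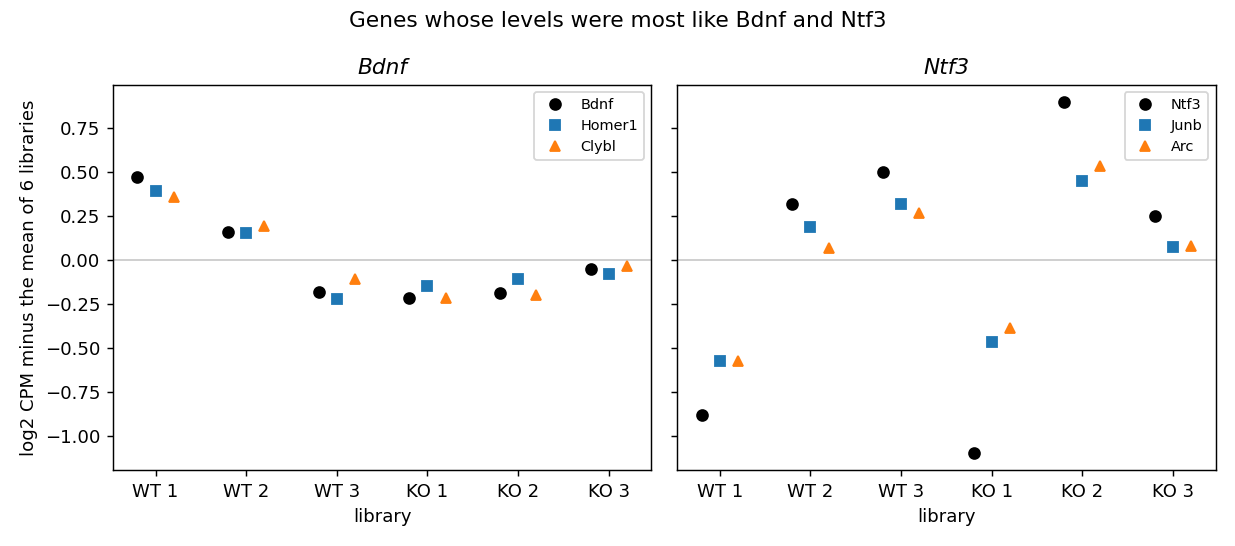
Log2 CPM minus the mean of the 6 libraries for *Bdnf* and *Ntf3* (black) and the 2 genes nearest to each (blue squares, orange triangles), by library. No prior count was added here, so the distances given in the text cannot be read off the panels. *Homer1* and *Clybl* are highest in the library labelled WT replicate 1 as *Bdnf* is, and *Junb* and *Arc* are lowest in replicate 1 of both groups as *Ntf3* is.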

How the data were processed

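The deposited values are raw counts of fragments per gene, 1 table per library. Per the submitters' processing notes and the file headers, the authors aligned reads with STAR 2.7.9a and counted fragments over exons with featureCounts 1.6.0, in paired-end mode and by strand, on GENCODE M31 and GRCm39. The study's methods name an earlier build and annotation, and the file headers were followed here. Multimapping fragments, and those over more than 1 gene, were left out of the counts. Nothing was normalized or pooled. The deposited gene lengths served only for TPM.

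Symbols were matched by gene identifier for 52073 of 56923 genes. The count filter (at least 6 fragments in at least 1 library), voom and limma follow the study's methods, and the other settings were chosen here. The 19084 genes that passed were tested with TMM scaling (edgeR 4.0.16), voom and limma 3.58.1 under R 4.3.3, two-sided, without covariates, with Benjamini-Hochberg adjustment over all genes and a threshold of 0.05. The fit was tested on simulated data. The within-library ratios were compared by exact permutation. Alternatives were edgeR's quasi-likelihood test, DESeq2 1.42.0, other scalings and filters, library weights, covariates and leaving out libraries.

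The 6 genes and the lists were chosen with earlier results of these data known. Named were *Pla2g4e*, the ligands and receptors and, in each further list, up to 4 genes with an unadjusted p-value under 0.05, or else the 1 of lowest p-value. Some genes of the lists are not reported here and are left out of the list counts.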

Additional observations from a re-analysis of the deposited data

How the results depend on the processing

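No alternative brought any of the 6 genes past the adjusted threshold. The direction of *Bdnf*, *Ngfr* and *Sort1* was the same in all 17 alternatives. *Ntf3* changed direction in the quasi-likelihood test (0.10), DESeq2 (0.11), with library weights (0.10), with the Y-linked covariate (0.08) and in the libraries with Y-linked expression (0.14). In those libraries *Ntrk2* was at -0.0031 and *Ntrk3* at 0.01. Leaving out single replicates gave -0.44 to 0.56 for *Ntf3*, -0.02 to 0.04 for *Ntrk2*, -0.07 to 0.11 for *Sorcs3* and -0.39 to 0.60 for the *Ntf3* to *Ntrk3* ratio. The cause was not tested.

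Of the 6 genes, 1 (*Bdnf*) had an unadjusted p-value under 0.05 in the quasi-likelihood test (1507 over all genes) and in DESeq2 (902 over all genes). The same held with relative log expression scaling (1502), with all genes of at least 1 fragment (2115) and with the Y-linked covariate (2030). When single replicates were left out, 0 to 1 of the 6 genes were under 0.05. Over the pathway lists the number was 11 with the Y-linked covariate (2030 over all genes) and 3 to 13 without single replicates (3 without KO replicate 1, 10 without KO replicate 3, 13 without WT replicate 3). Over all genes, 1 gene passed the adjusted threshold in DESeq2, 24 with the Y-linked covariate and 3 in the libraries with Y-linked expression, and 0 to 1 without single replicates. Unadjusted, 902 genes were under 0.05 in DESeq2, 696 in the libraries with Y-linked expression and 782 to 2239 without single replicates (830 without KO replicate 1, 782 without WT replicate 2, 2239 without WT replicate 3).

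With the replicate block, *Ntf3* was at 0.10, 1 of the 6 genes (*Bdnf*, -0.33, limma-voom adjusted p = 0.525) and 12 pathway genes were under 0.05 before adjustment, as were 1693 over all genes. Deviations of same-numbered libraries correlated across genes at 0.267, 0.059 and -0.020, so replicate numbers were not treated as pairs. The value of 0.267 belongs to replicate 1, the library without Y-linked expression in each group, and the part of that trait in it was not tested. Counts of 2 to 21 fragments limit *Ntf3* and *Ngfr*.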

Other observations

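The abundant receptors varied so little that their nearest genes were likewise nearly constant. Nearest to *Ntrk2* were *Cnot3*, a subunit of the CCR4-NOT deadenylase, with a root mean square difference of 0.018 on the log2 scale, and *Prdm4* (0.0198), where *Ntrk2* varied by 0.0501. Nearest to *Ntrk3* were *Mb21d2* (0.00846) and *Smad2*, a mediator of TGF-beta signals (0.0158). Nearest to *Sort1* were *Usp12*, a deubiquitinase (0.0109), and *Nr2c2*, a nuclear receptor (0.0126).

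Nearest to *Ngfr* were *Bmp6*, a bone morphogenetic protein (0.238), and *Col24a1*, a fibrillar collagen (0.264), where *Ngfr* varied by 0.698 with the prior count. *Col24a1* gave 32, 16.1 and 13.9 CPM in the KO libraries and 11.4, 5.4 and 12 CPM in the WT libraries. *Bmp6* gave 17, 10.9 and 13.2 CPM in the KO libraries and 13.5, 5.32 and 9.5 CPM in the WT libraries. Both were highest in KO replicate 1 and lowest in WT replicate 2, as *Ngfr* was.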
